A study of Mus musculus with 24 samples.

Results

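The middle of the chase in Tut4/7 cDKO preleukemic cells was examined by setting 180 min against 60 min. The members were the 6 of 24 libraries of the series whose titles give the genotype as cDKO and the chase as 60min or 180min, 3 libraries at each time, a rule that reads the labels alone. The cells were c-Kit-enriched progenitors of mouse fetal liver that had been transduced with retroviruses encoding Meis1 and Hoxa9 and replated serially. All 6 libraries carried floxed Tut4 and Tut7 alleles together with Vav-iCre, a recombinase expressed across hematopoietic cells. The control genotype, used in one comparison at the end, had the same floxed alleles without Vav-iCre (6 libraries at the same times). Cultures held IMDM with serum, Stem Cell Factor, IL-6 and IL-3. RNA was labelled with 2.9 µM 4-thiouridine (4SU) for 12 h, the medium was then exchanged for one free of 4SU, and cells were collected 1 h and 3 h later. Batch in the labels is the same as chase time, and their effects cannot be told apart. Each time had replicates 1, 2 and 3, named as biological triplicates in the study's methods, and values below are listed in that order.

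TUT4 and TUT7, both terminal uridylyl transferases, attach uridines at RNA 3′ ends, for example on mRNAs with shortened poly(A) tails that are on their way to degradation. In SLAM-seq, 4SU built into RNA is alkylated and appears in sequencing as a T-to-C conversion. The conversion rate of a transcript, its converted T positions over all covered ones, falls as labelled molecules are degraded and unlabelled ones take their place. Many of the shortest-lived mRNAs of a cell encode transcription factors, cytokines and feedback inhibitors, and carry AU-rich elements in the 3′ untranslated region (3′UTR) to which proteins such as ZFP36 family members bind. Transcripts of ribosomal proteins and metabolic enzymes are known to be among the long-lived ones. Read counts and label give different information here: the first measures how much of a transcript was present relative to the others, the second how much of what was present had been made before the chase.

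The 6 libraries held 4582125 to 5320787 reads in 3′UTRs, and 9.24 to 10.0% of reads mapped to several places. Tut4 stood at 31.9, 40.0 and 32.2 CPM (3′UTR reads of a gene, scaled to the same total in every library) at 60 min and 35.6, 33.6 and 34.6 at 180 min in cDKO, against 77.6 to 105 CPM in the 6 control libraries. Tut7 stood at 22.0 to 33.3 CPM in cDKO and 37.7 to 66.1 CPM in control. Both genes were lower in every cDKO library, though 3′ tags may lie outside the deleted part and so check the deletion only in part. Neither was called between the times, with log2 changes of -0.00 for Tut4 (edgeR adjusted p = 0.999) and 0.14 for Tut7 (edgeR adjusted p = 0.740). Of 14 markers of the progenitor state, 13 reached 1 CPM, led by Hoxa9. The erythroid list had 3 of 9 markers at 1 CPM or more (Hbb-bt, Hba-a2 and Hba-a1), with a summed level of 1422 to 1945 CPM at 60 min and 1423 to 2009 CPM at 180 min, and 3 markers at 0 throughout. Nearly all of this sum was Hbb-bt, at 1414 to 2001 CPM, while Hba-a1 and Hba-a2 stood at 0 to 5.69 CPM. The mast cell and basophil list summed to 143 to 222 and 150 to 236 CPM. Mature neutrophil markers summed to at most 2.62 CPM and B lymphoid markers to at most 0.436 CPM. The 7 macrophage markers summed to 209 to 297 CPM at 60 min and 193 to 302 CPM at 180 min, of which Adgre1 made up 179 to 285 CPM and Cd68 12.0 to 18.4 CPM, while 4 were at 0 in all 6 libraries. None of the markers of these other cell types was called between the times. The cultures differed from each other: Mpo, a granule enzyme gene, stood at 172, 7.99 and 2.08 CPM at 60 min and 179, 7.12 and 1.32 CPM at 180 min. Samples of the same number thus shared a culture's profile at both times, and the fits across genes have the replicate number as a block unless said otherwise.

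Label was lost in each replicate. Of all covered T positions, 0.767, 0.789 and 0.520% were converted at 60 min and 0.550, 0.569 and 0.386% at 180 min. Replicate 3 carried the least label at both times, and its 60 min rate lay below the 180 min rates of the other replicates, so the groups overlapped. Within replicates the rate fell by 0.48, 0.47 and 0.43 on the log2 scale, a mean of -0.46 ± 0.03 (SD, n = 3). The means were 0.692 ± 0.150% and 0.502 ± 0.101% (SD, n = 3), with a two-sided exact permutation p of 0.3 between the groups, where 3 against 3 libraries cannot go below 0.1. Over the replicate pairs, a two-sided exact sign-flip permutation gave p = 0.25, the smallest that 3 pairs allow. In the median gene the fall was steeper than in the library as a whole: taken from the median rate over genes, the log2 change was -0.69.

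Few transcripts changed in relative amount while the label fell. In abundance, 352 of 10365 genes tested (3.40%) passed an adjusted p of 0.05 in edgeR's quasi-likelihood test, which is what "called" means below. Of these 181 rose (1.75%) and 171 fell (1.65%), and the median log2 change over all genes was -0.00. The scaling of read counts between libraries takes most genes as unchanged, which holds this median near 0. A change in amount shared by all transcripts could not be seen. The conversion rate, tested without such a scaling, changed in 3005 of 7357 genes tested (40.8%). In 3001 of these it was lower at 180 min, with a median log2 change of -0.60 over all genes. In bulk samples, less RNA of a gene per cell and fewer cells that carry it cannot be told apart. The abundance calls depend on the pairing and on each replicate: 77, 189 and 234 genes were called without replicates 1, 2 and 3, 94 with DESeq2, 77 with all 12 cDKO libraries in one fit, and 0 without the replicate block, where 627 genes had an unadjusted p under 0.05. The label calls numbered 1715, 1920 and 2655 without replicates 1, 2 and 3 and 1648 without the block.

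Among genes at 10 or more mean CPM that moved the same way in all 3 replicates, the largest falls in abundance were those of Egr1, Trib1 and Hlx. Egr1, an immediate early transcription factor, had 25.5, 10.4 and 32.4 CPM at 60 min and 3.87, 0.814 and 10.9 CPM at 180 min. It dropped in each replicate, while replicate 3 at 180 min lay above replicate 2 at 60 min. The log2 change was -2.27 ± 0.26 (SE, edgeR adjusted p = 1.5e-08). Trib1 (chr15:59654702-59657099, plus strand, 3′UTR, mm10), a pseudokinase that directs the degradation of C/EBPα, had 48.2, 42.4 and 75.1 CPM at 60 min and 24.4, 15.1 and 23.3 CPM at 180 min, without overlap. Its log2 change was -1.39 ± 0.15 (edgeR adjusted p = 7.1e-10). Hlx (chr1:184727143-184727508, minus strand, 3′UTR), a homeobox gene of hematopoietic progenitors, had 48.4, 27.2 and 62.4 CPM at 60 min and 16.7, 12.6 and 28.6 CPM at 180 min. It was lower in each replicate, with replicate 3 at 180 min just above replicate 2 at 60 min, and fell by 1.26 in log2 (SE 0.15, edgeR adjusted p = 3.1e-08). The other 7 of the 10 largest falls under the naming rule were Slc30a1, Utp14b, Ccl3, Insig1, Rpph1, Tiparp and Csf1, with log2 changes from -1.11 to -0.93. Slc30a1 is a zinc exporter, Ccl3 a chemokine, Insig1 a brake on sterol synthesis, Rpph1 the RNA subunit of RNase P, Tiparp an ADP-ribosyltransferase and Csf1 a macrophage growth factor. Without replicate 1, Slc30a1 (edgeR adjusted p = 0.153), Utp14b (0.116), Rpph1 (0.0881) and Csf1 (0.157) were no longer called, while Egr1, Trib1, Hlx, Ccl3, Insig1 and Tiparp stayed called whichever replicate was left out.

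Several of these transcripts hold a copy of TATTTAT, the core of an AU-rich element, in the 3′UTR. A copy was present in 45.1% of all genes that fell and in 32.8% of all genes tested in abundance. The 3′UTRs of the falling genes were longer, with medians of 1763 against 1354 bases. The first copy is shown for 5 of the 10 largest falls, with TATTTAT in capitals. None is shown for Egr1, Trib1, Hlx, Utp14b and Rpph1. Each is a window of 30 bases, 5′ to 3′ on the transcript strand, from the GENCODE canonical transcript on GRCm39.
Slc30a1 (chr1:191643851-191643880, plus): ttttagagaatTATTTATttctttacaatg
Ccl3 (chr11:83538828-83538857, minus): gtatttgtgacTATTTATtctgaaagactt
Insig1 (chr5:28282222-28282251, plus): tgtagtaagaaTATTTATccagaattaaaa
Tiparp (chr3:65462301-65462330, plus): ttccacacaatTATTTATtttgccctagtt
Csf1 (chr3:107650225-107650254, minus): catactgccacTATTTATtgtgggccctgg
Insig1 and Tiparp hold 2 copies each. A match describes the letters of the 3′UTR and is no evidence of a bound protein.

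Of the rising transcripts at this level, Nradd showed the largest change. Nradd (chr9:110621135-110621420, minus strand, 3′UTR), a death-domain membrane protein gene, had 11.6, 10.4 and 10.8 CPM at 60 min and 27.5, 31.9 and 23.7 CPM at 180 min. The groups were far apart, and the log2 change was 1.33 ± 0.19 (SE, edgeR adjusted p = 2.1e-06). Ppp1r10 (chr17:35931259-35932283, plus strand, 3′UTR), which encodes a nuclear regulator of protein phosphatase 1, went from 24.4, 18.2 and 17.8 to 52.3, 49.4 and 40.4 CPM, which is 1.23 ± 0.15 in log2 (edgeR adjusted p = 2.3e-08). Klf3 (chr5:64829159-64830129, plus strand, 3′UTR), a transcriptional repressor of the Krüppel-like family, went from 14.2, 15.8 and 10.4 to 37.4, 24.6 and 33.1 CPM, again without overlap, or 1.23 ± 0.18 in log2 (edgeR adjusted p = 5.2e-06). The other 7 were E330033B04Rik, Dop1a, Zfp691, AW146154, Wars2, Igflr1 and Zfp787, with log2 changes from 0.97 to 1.20. Of the 10, Nradd, Ppp1r10, Klf3, E330033B04Rik and AW146154 stayed called whichever replicate was left out. The others lost the call without replicate 1, with edgeR adjusted p-values of 0.141 for Dop1a, 0.333 for Zfp691, 0.274 for Wars2, 0.207 for Igflr1 and 0.157 for Zfp787. Igflr1 was also lost without replicate 2 (0.279), and Dop1a (0.0746), Zfp691 (0.152) and Wars2 (0.0635) without replicate 3.

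**Figure D1:**
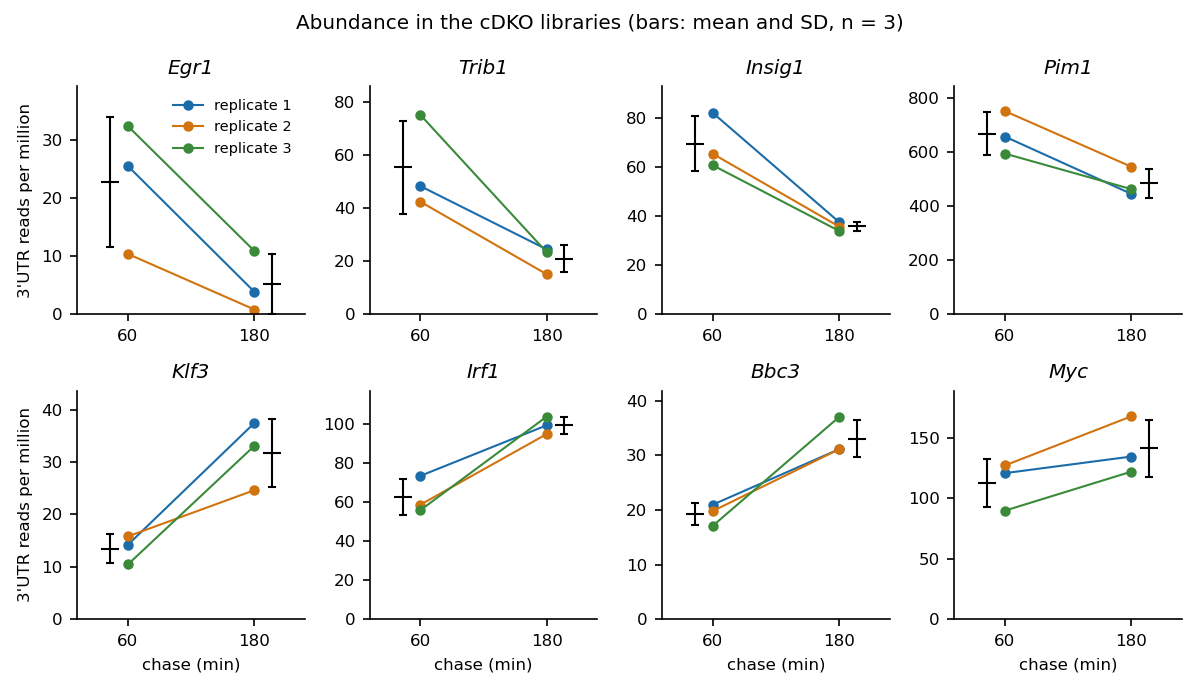
Abundance (CPM of 3′UTR reads) of 8 genes in the cDKO libraries at 60 and 180 min of chase (x axis, min). Coloured lines join the libraries of a replicate, and black bars give the mean and SD (n = 3). Egr1, Trib1, Insig1 and Pim1 fell in each replicate, and Klf3, Irf1, Bbc3 and Myc rose in each.

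Immediate early and feedback genes are induced by growth factors within minutes. Of 38 tested, 9 fell and 3 rose (Jund, Ier5 and Myc), beside 1.65 and 1.75% of all genes, and the median log2 change was -0.39 beside -0.00 over all genes. The 4 largest changes were those of Ptgs2, Egr1, Fosb and Spry1. Fosb, an AP-1 subunit, had 19.9, 6.39 and 19.3 CPM at 60 min and 4.68, 0.610 and 5.45 CPM at 180 min. No library overlapped, and the log2 change was -2.15 ± 0.31 (SE, edgeR adjusted p = 1.8e-06). Spry1, an inhibitor of receptor tyrosine kinase signalling, fell from 15.1, 14.8 and 9.48 to 4.07, 4.68 and 6.01 CPM, a log2 change of -1.39 (edgeR adjusted p = 0.00188, and 0.206 without replicate 1). Ptgs2, the inducible cyclooxygenase, was near the limit of detection, with 2.40, 0.799 and 3.98 CPM at 60 min and 0, 0.407 and 0.188 CPM at 180 min (edgeR adjusted p = 0.0405). It had too few reads to be tested without replicate 1 or 3. At 0 min, Fosb and Egr1 of this list, and Trib1, which is not in it, stood lower than at 60 min. Mean CPM at 0 min were 0.904 for Fosb, 12.9 for Egr1 and 22.9 for Trib1, against 15.2, 22.8 and 55.2 at 60 min. This difference was not tested, and the other members at 0 min are not described. Without replicates 1, 2 and 3 the list had 4, 7 and 9 genes called lower and 0, 1 and 1 called higher.

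Of the cholesterol genes 7 were called, all of them lower. The list held enzymes of sterol synthesis and uptake genes with their regulators, and 7 of its 27 tested members were called lower, beside 1.65% of all genes, with a median log2 change of -0.23 and 24 of 27 below 0. Insig1 had 82.3, 65.5 and 60.8 CPM at 60 min and 37.6, 35.8 and 34.0 CPM at 180 min, so that every 180 min library lay below every 60 min library. Its log2 change was -0.95 ± 0.12 (SE, edgeR adjusted p = 9.8e-08). Hsd17b7 (-0.64, edgeR adjusted p = 0.00255) and Msmo1 (-0.49, edgeR adjusted p = 0.00187), both enzymes of the late sterol pathway, and Hmgcs1 (-0.39, edgeR adjusted p = 0.00338), which makes HMG-CoA, fell by less. Sqle and Cyp51 were also called, at -0.40 and -0.31. Fdps, the farnesyl diphosphate synthase, had a log2 change of 0.19 and was not called (edgeR adjusted p = 0.551). Of the 9 tested genes of cholesterol export and LXR response, 1 fell, the transporter gene Abcg1 (-0.46, edgeR adjusted p = 0.0334, and 0.298 and 0.325 without replicates 1 and 2). The cholesterol count of 7 was 2, 7 and 4 without replicates 1, 2 and 3. Without replicate 1, Hsd17b7 had an edgeR adjusted p of 0.249, Msmo1 of 0.103 and Hmgcs1 of 0.252, and without replicate 3 Msmo1 had 0.0532 and Hmgcs1 0.103.

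Among targets of p53, the factor that answers DNA damage, 4 of 27 tested rose and 0 fell, beside 1.75 and 1.65% of all genes, with a median log2 change of 0.21. Bbc3, the proapoptotic BH3-only protein PUMA, had 21.0, 19.8 and 17.1 CPM at 60 min and 31.1, 31.1 and 37.0 CPM at 180 min, without overlap, and the log2 change was 0.78 ± 0.16 (SE, edgeR adjusted p = 0.0017). Cdkn1a, the cell cycle inhibitor p21, went from 218, 206 and 318 to 303, 232 and 382 CPM. It was higher in each replicate, though the groups overlapped, and the log2 change was 0.30 ± 0.07 (edgeR adjusted p = 0.00255). Polk, a translesion polymerase, rose by 0.65 (edgeR adjusted p = 0.00399) and Ddit4, an inhibitor of mTORC1, by 0.57 (edgeR adjusted p = 0.00112). Mdm2, the ubiquitin ligase of p53, was not called (0.21, edgeR adjusted p = 0.313). The count of 4 became 1, 4 and 1 without replicates 1, 2 and 3: Cdkn1a (0.216), Polk (0.201) and Ddit4 (0.172) lost the call without replicate 1, and Bbc3 (0.0704), Polk (0.0503) and Ddit4 (0.189) without replicate 3, each value an edgeR adjusted p.

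Among the targets of cytokine and JAK-STAT signalling, 4 rose and 4 fell of 21 tested, beside the same shares of all genes. Pim1 (chr17:29494748-29495465, plus strand, 3′UTR), a survival kinase induced by IL-3, had 657, 752 and 594 CPM at 60 min and 445, 546 and 463 CPM at 180 min. It was lower in each replicate, without overlap, and fell by 0.46 in log2 (SE 0.05, edgeR adjusted p = 5.7e-09). Its relative Pim3 fell by 0.54 (edgeR adjusted p = 0.000259) and the cytokine Osm by 0.70 (edgeR adjusted p = 0.0407). Socs1, which inhibits JAK kinases, went from 35.1, 27.0 and 44.2 to 47.8, 44.7 and 70.3 CPM, a rise of 0.61 (edgeR adjusted p = 0.0016). Myc, the growth regulator, had 121, 127 and 89.8 CPM at 60 min and 135, 168 and 122 CPM at 180 min. It was higher in each replicate, by 0.33 on the log2 scale (edgeR adjusted p = 0.0146), but was not called without replicate 1, 2 or 3 (edgeR adjusted p = 0.0538, 0.165 and 0.0916). Without replicate 1 the list had 1 gene called lower, and 2 genes were called higher without each of the 3 replicates. Pim3 (0.0881) and Osm (0.111) lost the call without replicate 1, and Osm also without replicates 2 (0.151) and 3 (0.391). Of 23 interferon response genes, Irf1, a transcription factor, rose from 73.3, 58.5 and 55.7 to 99.3, 94.8 and 104 CPM (0.67, edgeR adjusted p = 5.9e-06) and Isg20 fell (-0.73, edgeR adjusted p = 0.0463, and 0.152, 0.343 and 0.185 without replicates 1, 2 and 3). Of 23 NF-κB targets and chemokines, Ccl3 fell and Cxcr4 rose.

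Of the Hoxa9 and Meis1 program, 16 genes were tested: 3 fell (Trib1, Kit and Hoxa9) and 0 rose, beside 1.65 and 1.75% of all genes. Hoxa9 itself, which these cells also receive from the retrovirus, was among the most abundant 3′UTRs, with 4577, 4197 and 5564 CPM at 60 min and 4097, 3626 and 4414 CPM at 180 min. It was lower in each replicate, and fell by 0.24 in log2 (SE 0.03, edgeR adjusted p = 1.7e-06), and the groups overlapped. Kit, the receptor of Stem Cell Factor, fell by 0.41 (edgeR adjusted p = 0.0463), a call lost without replicate 1 (0.302) or 2 (0.374). Meis1, which the cells also receive from a retrovirus, stood at 0.20 to 5.26 CPM of 3′UTR reads, too low to describe. Whether 3′UTR reads include transcripts of the retroviruses was not tested. The values of Hoxa9 and Meis1, in abundance and in label, may therefore leave those out. In the list of neutrophil granule and maturation genes, 1 of 11 rose, Gfi1, a transcriptional repressor of myeloid differentiation, from 110, 126 and 93.6 to 154, 181 and 130 CPM (0.49, edgeR adjusted p = 4.7e-05), and 1 fell, Mcl1 (-0.29, edgeR adjusted p = 0.00216, and 0.0829 without replicate 1). Bcl2, the survival factor, was not called (-0.17, edgeR adjusted p = 0.195).

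The remaining lists had few called members in abundance, where 1.75% of all genes rose and 1.65% fell. No member was called of 39 mitotic and G2/M genes, 13 terminal transferase and poly(A) genes or 15 genes of uridine salvage. Of 67 mRNA decay factors 2 rose, the silencing scaffolds Tnrc6a (0.33, edgeR adjusted p = 0.000503) and Tnrc6c (0.47, edgeR adjusted p = 0.000497), and 2 fell, the exosome subunits Exosc3 and Exosc6 (-0.59 and -0.42, edgeR adjusted p = 0.0252 and 0.00787). Tnrc6a had 257, 256 and 256 CPM at 60 min and 299, 330 and 338 CPM at 180 min, without overlap, and both Tnrc6 calls held whichever replicate was left out, while Exosc3 and Exosc6 lost theirs without replicate 1 (0.145 and 0.143) or 2 (0.0527 and 0.126), and Exosc3 also without replicate 3 (0.313). Ribosomal protein genes had 2 of 75 called higher (Rpl37 by 0.16 and Rps14 by 0.12 on the log2 scale) and a median of 0.00. Oxidative phosphorylation subunits had 1 of 79 called lower (Sdhd, -0.58), the chaperones 2 of 19 (Hspa8, -0.23, and Hspa5, -0.16), glycolysis genes 1 of 23 (Slc16a1, a lactate carrier, -0.38), and ATF4 targets 1 of 37 in each direction (Ddit4 higher, Slc7a1 lower). Without replicate 1, Sdhd, Slc16a1, Hspa8, Hspa5, Slc7a1 and Rpl37 were not called, and without replicate 2 the same held for Hspa8 (edgeR adjusted p = 0.174), Hspa5 (0.266), Slc7a1 (0.125), Rpl37 (0.35) and Rps14 (0.35). Rps14 (0.0532), Hspa5 (0.0916) and Slc7a1 (0.139) lost the call without replicate 3. Zfp genes, named for zinc fingers, had 14 called higher and 5 lower of 262 and a median of 0.13. Without replicates 1, 2 and 3, 1, 8 and 6 were called higher and 3, 5 and 3 lower.

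Genes differed widely in how fast label was lost. To set each gene against the library, the fall of the library-wide rate was taken out in a further test, in which 1452 of 7357 genes were called (19.7%): 1022 lost label faster than the library (13.9%) and 430 more slowly (5.84%). With the median rate over genes as the reference, the split turned to 712 faster and 968 slower, so the balance of the directions depends on the reference. The numbers called faster or slower are therefore given below with both references. Of the 85 genes that the naming rule picked and that were called against the library, 77 were called with the median rate as well. Other settings cost more calls: 43 of the 85 were lost with all table lines summed and 27 of 71 tested with DESeq2. Without replicates 1, 2 and 3, 26 of 72, 22 of 70 and 20 of 73 tested were lost. For the 3001 genes whose rate fell, the fall corresponds to a half-life of 120 min divided by the log2 loss. This holds if no labelled RNA was made after 60 min and the amount of the transcript stayed the same. In genes called in abundance, such as Insig1, Pim1, Hmgcs1, Hoxa9, Cdkn1a and Myc, the amount changed. Their values below are therefore not measures of decay alone. The median half-life was 102 min, with quartiles of 77.2 and 152 min. It was under 60 min in 245 genes, 9 of which had a 180 min rate at or below the background given next, under 120 min in 1850 and over 240 min in 313. These genes were selected for a detectable fall. The median change over all genes tested corresponds to 201 min, and within replicates 1, 2 and 3 to 188, 191 and 222 min. No unlabelled library was used, and after subtraction of a background of 0.0723%, the rate of 419 short-lived genes at 540 min, the median over 2507 called genes was 84.8 min. The half-lives of single genes below are without this subtraction. They are least certain where a 180 min rate lay near the background, as in Zfp36l2, Cebpa, Hk2, Cdkn1a and Pim1.

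The fastest losses were those of Dyrk2 and Trib1. Dyrk2, a kinase that acts on p53, had rates of 0.899, 0.906 and 1.12% at 60 min and 0, 0.0574 and 0% at 180 min, from 55 conversions to 1. Label had all but gone. Trib1 had rates of 0.393, 0.886 and 0.253% at 60 min and 0, 0.0747 and 0% at 180 min, from 68 conversions to 1. The log2 changes of the rate were -4.94 ± 0.98 for Dyrk2 (SE, edgeR adjusted p = 0.000127) and -4.48 ± 1.00 for Trib1 (edgeR adjusted p = 0.000508), and with 1 conversion left they rest on very small counts. The other 8 of the 10 fastest were Tepsin, Sema4b, Ehbp1, Nab2, Mier2, Ier5, Rest and Fbxo45. In 7 of the 10 (Dyrk2, Trib1, Tepsin, Sema4b, Nab2, Mier2 and Ier5), the rate over the 3 libraries at 180 min lay at or below the background of 0.0723%, and in the others it reached at most 0.102%, so that no half-life is given for these genes. Nab2, Ier5 and Fbxo45 stayed called against the library whichever replicate was left out. Dyrk2, Tepsin, Sema4b, Mier2 and Rest had too few conversions to be tested with any replicate left out, and Trib1 and Ehbp1 without replicate 2. Nab2 is a corepressor of EGR proteins and Rest a repressor of neuronal genes. Fbxo45, a ubiquitin ligase subunit, rested on more counts, 128 conversions at 60 min and 12 at 180 min, with rates of 0.852, 0.717 and 1.06% against 0.132, 0.110 and 0.0470%. Abundance was not called in Dyrk2, Tepsin, Sema4b, Ehbp1, Nab2, Mier2, Rest or Fbxo45. Ier5 rose, from 29.5, 28.4 and 32.6 to 52.1, 34.4 and 47.7 CPM (0.55, edgeR adjusted p = 0.0137, and 0.333 without replicate 1), while its rate fell by 3.21 on the log2 scale.

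In genes with deeper coverage the loss rested on more conversions. Pim1 had rates of 0.671, 0.640 and 0.461% at 60 min and 0.176, 0.175 and 0.115% at 180 min. All 3 late values lay far below the early ones, from 915 conversions to 180, a half-life of 62.2 min (57.7 to 67.4 within 1 SE). The background of 0.0723% was not subtracted from these rates, and the interval does not cover its effect. Hmgcs1 lost label from 1.03, 1.03 and 0.429% to 0.191, 0.220 and 0.275%, from 466 conversions to 95, with a half-life of 64.0 min (56.5 to 73.7), and replicate 3 fell least. With Sc5d and Msmo1 it was among the 5 of 23 cholesterol genes called faster than the library, beside 13.9% of all genes. Against the median rate 4 were faster and 1 slower. Without replicate 1 the count was 3, where Sc5d (edgeR adjusted p = 0.263) and Msmo1 (0.0536) lost the call, and Sc5d did so without replicate 2 as well (0.191). Insig1, whose abundance fell most in this list, had rates of 1.95, 1.79 and 1.47% against 0.833, 1.15 and 0.701%, a half-life of 124 min, and was not called against the library (-0.50, edgeR adjusted p = 0.0552). The list's median label change was -0.60, the same as over all genes.

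In the Hoxa9 and Meis1 program, 5 of 14 lost label faster than the library and 0 more slowly, beside 13.9 and 5.84% of all genes (4 and 1 against the median rate), and the median log2 change was -1.10. Cebpa, a master regulator of granulocytic fate, had rates of 0.785, 0.671 and 0.432% at 60 min and 0.146, 0.223 and 0.0768% at 180 min, a half-life of 56.0 min. Myb, a progenitor transcription factor, went from 0.856, 0.856 and 0.585% to 0.284, 0.392 and 0.270%, from 1598 conversions to 675, with a half-life of 94.1 min (87.3 to 102). Lmo2 had a half-life of 90.8 min. In none of Cebpa, Myb and Lmo2 was abundance called. Hoxa9 was not called against the library: its rates of 0.886, 0.905 and 0.712% became 0.624, 0.687 and 0.541%, a half-life of 277 min (248 to 313), with 0.03 against the library (edgeR adjusted p = 0.780). Myc lost label with a half-life of 106 min (86.0 to 139, edgeR adjusted p = 0.000881, and 0.0543 without replicate 2) and Bcl2 with one of 123 min. The change of Bcl2 against the library was -0.52 (edgeR adjusted p = 0.0472, and 0.337 and 0.0925 without replicates 1 and 3). Tut4 had rates of 0.538, 0.509 and 0.409% against 0.180, 0.0821 and 0.254% (edgeR adjusted p = 0.0144, and 0.0841 and 0.177 without replicates 1 and 2).

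Immediate early genes had a median label change of -1.35, with 7 of 18 called faster and 0 slower, beside 13.9 and 5.84% of all genes. For p53 targets it was -1.16, with 5 of 18 faster, and for cytokine targets -1.12, with 6 of 15 faster. Zfp genes had -1.23, with 24 of 85 faster and 0 slower. Cdkn1a, which rose in abundance, had rates of 0.628, 0.840 and 0.497% at 60 min and 0.206, 0.150 and 0.119% at 180 min, a half-life of 59.1 min. Mitotic genes, none of which was called in abundance, lost label in 29 of 36, beside 40.8% of all genes. In this list 12 were faster than the library, among them the kinase gene Plk1 (84.1 min), Prc1, Ccnf and the separase gene Espl1. The list median was -0.91. Of the decay factors, 18 of 57 were faster and 0 slower (median -0.82). They included Zfp36l2, itself a protein that binds AU-rich elements, with rates of 0.669, 0.584 and 0.675% against 0.184, 0.0749 and 0.0842% and a half-life of 47.5 min, and Tob2, which recruits a deadenylase (62.9 min). The Zfp36l2 rates of 0.0749 and 0.0842% lay near the background of 0.0723%, which was not subtracted. In the list of terminal transferases and poly(A) genes 3 of 11 were faster, namely the poly(A) polymerases Mtpap, Tent4b and Tent5a, and 1 was slower, the poly(A)-binding protein gene Pabpc1. Without replicates 1, 2 and 3 the numbers called faster were 3, 4 and 5 of the immediate early list, 3, 5 and 3 of the p53 list, 5, 4 and 5 of the cytokine list, 8, 11 and 18 of the Zfp list, 7, 10 and 8 of the mitotic list, 14, 11 and 15 of the decay list and 2, 1 and 3 of the transferase list. Of the genes named here, Ccnf lost the call without replicates 1 (edgeR adjusted p = 0.112) and 3 (0.13), Espl1 without 2 (0.191) and 3 (0.0633), Tent4b without 1 (0.0745) and 2 (0.0888), Mtpap without 2 (0.0984) and Pabpc1 without 1 (0.163). Against the median rate, where 9.68% of all genes were faster and 13.2% slower, 5 genes of the immediate early list were faster and 0 slower. The numbers were 5 and 1 for p53 targets, 3 and 0 for cytokine targets, 13 and 1 for Zfp genes, 8 and 4 for mitotic genes, 13 and 5 for decay factors and 3 and 1 for the transferase list.

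Of 65 ribosomal protein genes, 40 lost label more slowly than the library and 0 faster (29, 25 and 37 without replicates 1, 2 and 3), beside 5.84% of all genes that were slower, and the median log2 change of their rates was -0.02. The median rate of the list was 0.420% at 60 min, 0.412% at 180 min and still 0.314% at 540 min, 71.5% of its level at 0 min, against 13.0% over all genes tested. The list started low, at 0.440% at 0 min against 0.815% over all genes. Oxidative phosphorylation subunits had 16 of 78 slower and 0 faster (9, 11 and 18 without replicates 1, 2 and 3) and a median of -0.12. Against the median rate, 52 ribosomal protein genes and 45 of these subunits were slower and 0 faster, beside 13.2% of all genes that were slower. Rates rose in 4 genes (0.0544%), Rplp1, Rpl14, Rplp0 and Cenpw. Rpl14 had 2.30, 2.24 and 2.15% at 60 min and 2.66, 2.64 and 2.59% at 180 min, without overlap (0.24 ± 0.05, SE, edgeR adjusted p = 0.000479). Its mean rates of 2.44% at 0 min and 2.81% at 540 min did not fall either. Of the 4, Rpl14 stayed called whichever replicate was left out, while Rplp1 (0.0694 and 0.221) and Rplp0 (0.0548 and 0.294) lost the call without replicates 1 and 3, Rplp0 also without 2 (0.0509), and Cenpw without replicate 1 (0.156), each an edgeR adjusted p. Ribosomal protein genes have many near-identical copies in the genome, and how reads shared with copies were placed was not tested. The rates of Rpl14 lay far above the median of its list at each time. No sequence variant was looked for in this gene, and its part in the rate was not tested.

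Metabolic and chaperone lists were split by gene. Among 19 glycolysis genes, Hk2, a hexokinase gene, had rates of 0.791, 1.11 and 0.740% at 60 min and 0.0999, 0.229 and 0.205% at 180 min, a half-life of 52.3 min. Aldoa, the aldolase, had 0.556, 0.470 and 0.372% against 0.547, 0.510 and 0.354%, values that overlapped entirely, and the log2 change was 0.01 ± 0.08 (SE, edgeR adjusted p = 0.935) and 0.47 against the library (edgeR adjusted p = 2.6e-05). In all, 2 genes of this list were faster (Hk2 and Pfkfb3) and 3 slower, beside 13.9 and 5.84% of all genes, and Pfkfb3 lost the call without replicate 1 (edgeR adjusted p = 0.0821). Of 16 chaperones 5 were slower and 1 faster, of 29 ATF4 targets 7 slower and 4 faster, and of 13 uridine salvage genes 2 were slower, Nme1 and Nme2, the nucleoside diphosphate kinases. Slc3a2, an ATF4 target that anchors amino acid transporters, was faster, with a half-life of 84.5 min. Of 10 neutrophil granule genes, Gfi1 and Mcl1 were faster and 3 were slower. Without replicates 1, 2 and 3, the numbers called slower were 3, 1 and 3 of the glycolysis list, 3, 5 and 4 of the chaperones, 5, 2 and 4 of the ATF4 targets and 0, 2 and 3 of the granule genes. Against the median rate, the numbers faster and slower were 2 and 7 for glycolysis, 1 and 7 for chaperones, 3 and 9 for ATF4 targets, 0 and 3 for uridine salvage and 2 and 5 for granule genes. The 10 slowest single genes under the naming rule, from Rex1bd at 1.97 to Tspan3 at 1.14 against the library, were all low in conversions, such as 15 and 39 in Rex1bd, and none of them was called against 0. None of these 10 stayed called whichever replicate was left out. Rex1bd, Ddrgk1 and Creb3l1 had too few conversions to be tested then, and the other 7 (Nme4, Pcca, Mrps15, Hmga1, Eef1akmt2, Nudt9 and Tspan3) lost the call without at least 1 replicate.

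**Figure D2:**
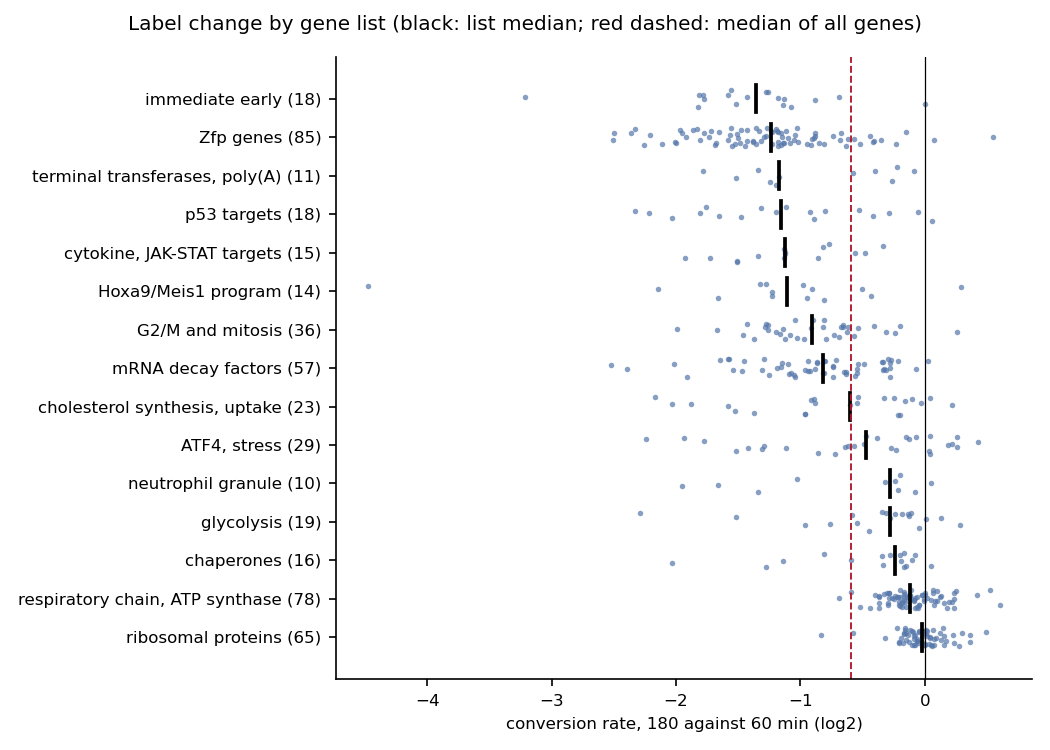
Log2 change of the conversion rate from 60 to 180 min for the members of 15 gene lists, 1 point per gene, with the number of genes tested in brackets. Black bars are list medians and the red dashed line is the median of all 7357 genes, -0.60. Immediate early, Zfp, p53 and cytokine lists lie to its left, and respiratory chain and ribosomal protein genes lie around 0.

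Abundance and label were then set side by side in the 7357 genes that entered both tests. Of the 153 genes that fell in abundance and were tested for label, 94 lost label (61.4%) and 43 did so faster than the library (28.1%), with a median label change of -0.78. Of the 149 that rose, 103 lost label (69.1%) and 59 did so faster (39.6%), with a median of -1.21. Among the 7055 genes not called in abundance, 39.7% lost label and 13.0% did so faster, and the median was -0.59. Conversely, 2804 of the 3001 genes with called label loss (93.4%) showed no called change in abundance, near the 95.9% of all 7357 genes. Against the median rate, 34 of the genes that fell (22.2%), 43 of those that rose (28.9%) and 9.00% of those not called were faster. Both readouts come from the same libraries, and the share of unlabelled molecules rises in a gene whose transcript increases. Hlx was among the falling genes without a called loss of label: it fell by 1.26 in abundance on the log2 scale while its rates of 0.718, 0.581 and 0.438% at 60 min and 1.23, 0 and 0.623% at 180 min ran in no common direction (0.05 ± 0.52, SE, edgeR adjusted p = 0.949).

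**Figure D3:**
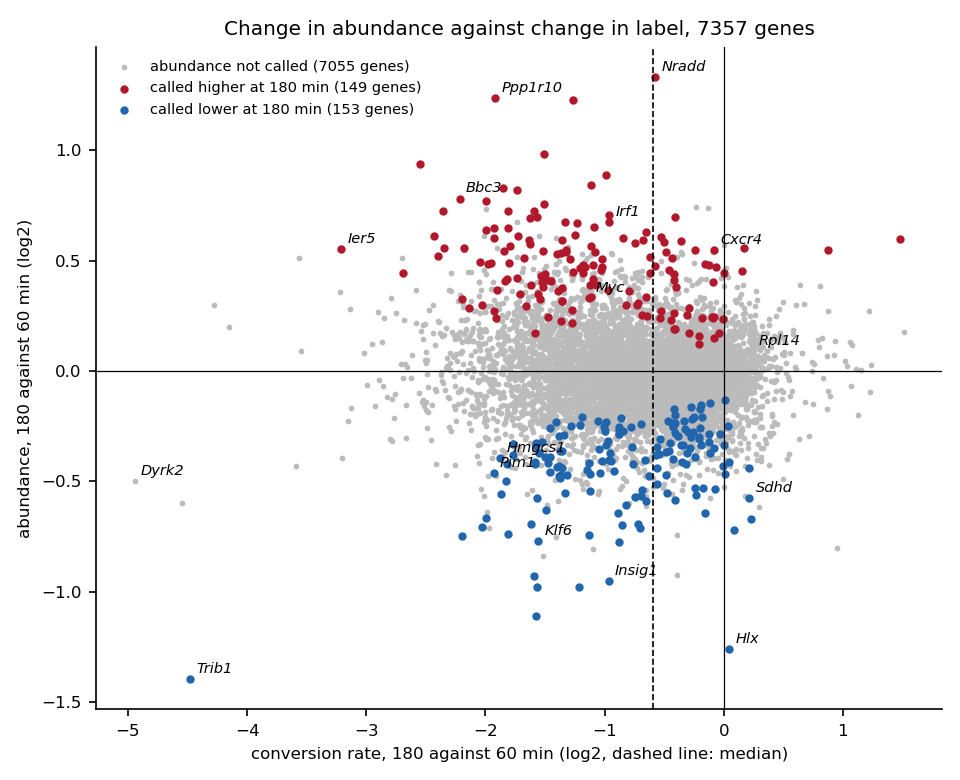
Log2 change in abundance (y axis) against log2 change in conversion rate (x axis) from 60 to 180 min for 7357 genes. Red points rose in abundance (149 genes), blue points fell (153 genes), grey points were not called (7055 genes), and the dashed line is the median label change. Of the red points 144 and of the blue points 143 lie left of 0, and Trib1 lies lowest on both axes among the blue ones.

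The letters of the 3′UTR differed between genes of fast and slow label loss. A TATTTAT was present in 474 of 992 genes that lost label faster than the library (47.8%), in 71 of 405 that lost it more slowly (17.5%) and in 2373 of all 7097 tested genes with a GENCODE 3′UTR (33.4%). The 3′UTRs differed in length as well, with medians of 2030, 800 and 1426 bases, and longer ones have more room for the motif. Per 1000 bases, the motif occurred 0.337, 0.180 and 0.280 times. Within 3′UTRs shorter than 1000 bases the shares were 19.2, 6.96 and 12.8%, from 1000 to under 2000 bases 42.7, 17.9 and 33.1%, and from 2000 bases on 63.8, 47.5 and 55.3%. In each length class the faster genes thus held the motif most often and the slower ones least often. Lengths still differed within classes, with medians of 606, 337.5 and 450 bases in the shortest. Per 1000 bases the motif occurred 0.426, 0.210 and 0.310 times in the shortest class. In the middle class the values were 0.430, 0.144 and 0.300, and in the longest 0.313, 0.187 and 0.270. With the median rate as reference, 46.9% of 691 faster and 20.3% of 924 slower genes held it, and within the length classes 18.8 and 7.77%, 43.0 and 24.7%, and 61.6 and 46.4%. By abundance, 74 of 164 genes that fell (45.1%) and 59 of 168 that rose (35.1%) held it, beside 32.8% of all genes tested. The motif was searched on the transcript strand, with overlapping copies counted, and these shares are given without a test.

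Finally, the change from 60 to 180 min was compared between cDKO and control, to ask which genes moved differently without TUT4 and TUT7. The difference was called in 31 of 10700 genes for abundance (0.290%), 13 with a higher (0.121%) and 18 with a lower change (0.168%) in cDKO, and in 1 of 8919 genes for label loss (0.0112%). The label fit included each library's library-wide rate, which takes out a difference in loss shared by all genes. With covered T alone as offset, 1 gene was called as well. The median label change was -0.60 over 7357 genes in cDKO and -0.68 over 8558 genes in control, a difference not tested. The cDKO libraries held fewer conversions than control, which limits what the label test can detect. Of the abundance calls, 28, 21 and 10 remained in number without cDKO replicates 1, 2 and 3, and 0 without the replicate block. Zfp703, a transcriptional repressor, had 290, 219 and 387 CPM at 60 min and 220, 163 and 258 CPM at 180 min in cDKO, and 149, 187 and 159 CPM against 163, 217 and 182 CPM in control. It fell in each cDKO replicate and was higher at 180 min in each control replicate, with a log2 difference of -0.66 ± 0.10 (SE, edgeR adjusted p = 5.9e-05). Vmp1, an autophagy gene whose 3′UTR interval overlaps that of Mir21a, went from 259, 247 and 293 to 421, 362 and 534 CPM in cDKO and from 253, 257 and 254 to 278, 255 and 292 CPM in control (0.60 ± 0.09, edgeR adjusted p = 5.9e-05). Ccl3 fell in both genotypes, from 86.2, 40.8 and 176 to 42.1, 15.3 and 106 CPM in cDKO and from 133, 109 and 109 to 31.9, 27.6 and 25.8 CPM in control. The log2 fall was -0.98 in cDKO and -2.04 in control (difference 1.06 ± 0.16, edgeR adjusted p = 8.2e-05, and 0.0543 without cDKO replicate 3). Malat1, a nuclear noncoding RNA, fell more in cDKO (-0.31 ± 0.05, edgeR adjusted p = 8.2e-05), and 2900060B14Rik differed by -0.74 ± 0.12 (edgeR adjusted p = 0.00012).

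The 1 gene called for label was Cxcr4 (chr1:128588199-128588842, minus strand, 3′UTR), the receptor that holds progenitors in their niche. Its rates in cDKO were 1.83, 1.65 and 1.51% at 60 min and 1.52, 1.66 and 1.52% at 180 min, and in control 0.884, 0.772 and 0.790% against 0.467, 0.327 and 0.323%. The cDKO values overlapped between the times and lay above all control values, while the control values dropped in each replicate. The label changes differed by 1.06 ± 0.16 in log2 (SE, edgeR adjusted p = 0.000281). It remained called without each cDKO replicate (edgeR adjusted p from 0.00323 to 0.0323), without the block, with DESeq2 and with T coverage alone as offset. The genotypes differed in label as a whole, with library-wide rates of 1.45 to 1.52% at 60 min and 1.05 to 1.12% at 180 min in control, above every cDKO library, and the part of this in the Cxcr4 difference was not tested beyond the library-wide rate in the fit. In abundance Cxcr4 rose in both genotypes, from 105, 116 and 98.7 to 167, 164 and 139 CPM in cDKO (0.55 ± 0.08, edgeR adjusted p = 5.2e-06) and by 0.41 in control, without a called difference (0.14, edgeR adjusted p = 0.776). Outside the interval, at 0 and 540 min, the rate averaged 2.25% and 1.33% in cDKO (SD 0.0872 at 540 min, n = 3) and 1.86% and 0.145% in control. No sequence variant at these positions was looked for, and its part in the rate was not tested.

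**Figure D4:**
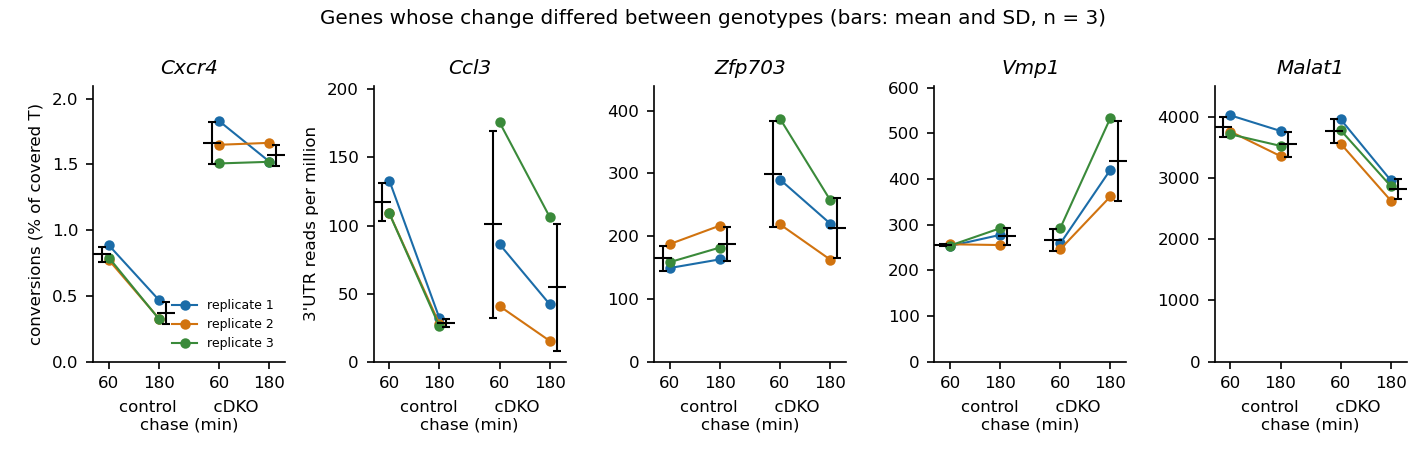
Conversion rate of Cxcr4 (% of covered T positions) and abundance (CPM) of Ccl3, Zfp703, Vmp1 and Malat1 at 60 and 180 min of chase, control on the left and cDKO on the right of each panel. Lines join the libraries of a replicate, and bars give the mean and SD (n = 3). The Cxcr4 rate fell in the control libraries, while the cDKO values overlap between the times, and Zfp703 fell in cDKO while it was higher at 180 min in each control replicate.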

How the data were processed

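RNA was alkylated and sequenced as QuantSeq FWD 3′ libraries without molecular identifiers. The authors tabulated reads, covered T positions and T-to-C conversions per 3′UTR interval of mm10 with SlamDunk 0.4.3, and these deposited counts were raw. Here, 39091 of 39419 lines (99.17%) were matched to a gene symbol, repeated intervals were removed, and the counts were summed to 20868 genes. CPM values are reads scaled by the library's total of 3′UTR reads, computed from the deposited counts. Counts were tested with edgeR 4.0.16 (quasi-likelihood, R 4.3.3), time plus replicate number as a block, with Benjamini-Hochberg adjustment over all genes tested. Label was tested as conversions with covered T as offset, in genes with at least 100 covered T in each library and 50 conversions, and once more with the library-wide rate added. DESeq2 1.42.0 and left-out replicates were alternatives. Same-numbered libraries of both times correlated in their abundance deviations (0.34, 0.69 and 0.69), different numbers from -0.62 to -0.07, so the numbers were taken as pairs. In the deviations of per-gene rates, the correlations were 0.016, 0.0028 and 0.021 for the same number. For different numbers they ran from -0.019 to 0.0064, so per-gene label did not show the pairs. The fits were also run on simulated counts with a fixed spread. Those counts had no differences between cultures in abundance or label rate, unlike these libraries. That run therefore does not show how the fits behave on these data. Named genes were the 10 largest rises and falls at 10 or more mean CPM, the 10 fastest and slowest with at least 1000 covered T, a few fixed genes, up to 4 called members per list and up to 5 genotype differences. The members and the 19 gene lists were chosen with earlier results of these data known. Motifs were read from GENCODE transcripts on GRCm39, whose coordinates were not mixed with mm10. Results for a few genes are not reported here.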

Additional observations from a re-analysis of the deposited data

Results flagged for a closer look

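The change from 60 to 180 min differed between cDKO and control, by the interaction term in edgeR, in 10 genes the text names for abundance and in 1 for label. In abundance the difference, cDKO minus control on the log2 scale, was 1.06 for Ccl3, 0.60 for Vmp1, 0.48 for Cdkn1a, 0.35 for Slc3a2 and 0.21 for Rps14. It was -0.89 for Abcg1, -0.74 for 2900060B14Rik, -0.66 for Zfp703, -0.34 for Hoxa9 and -0.31 for Malat1. For Abcg1 (edgeR adjusted p = 0.0262) and Hoxa9 (edgeR adjusted p = 0.000219), cDKO fell while the control change was 0.43 and 0.11. For Cdkn1a (edgeR adjusted p = 0.000477) cDKO rose and the control change was -0.18. In label, Cxcr4 differed by 1.06 (edgeR adjusted p = 0.000281). Groups of 3 are too small for a test of single outlying libraries.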

How the results depend on the processing

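With edgeR, 352 genes were called in abundance. The count was 94 with DESeq2, 77 with all 12 cDKO libraries in one fit, 168 with all table lines summed, and 77 to 234 with 1 replicate left out. Without the replicate block it was 0, with 627 genes at an unadjusted p under 0.05. For label loss, 3005 genes became 1648 without the replicate block and 1715 to 2655 with 1 replicate left out. Against the library, 1452 became 715 with DESeq2, 633 with all table lines summed and 819 to 1231 with 1 replicate left out. The genotype difference in abundance, 31 genes, became 0 without the replicate block, with 470 at an unadjusted p under 0.05 (DESeq2 called 22 with the block), and 10 to 28 with 1 cDKO replicate left out. The library-wide log2 change of -0.46 was -0.69 with the median of per-gene rates and -0.53 after background subtraction, which also moved the median half-life from 102 to 84.8 min. The sign of the Tut4 abundance change, which was near 0 and never called, turned to 0.0038 with all 12 cDKO libraries, and ranged from -0.081 to 0.13 with 1 replicate left out. Of the 61 genes that the naming rule picked and that were called in abundance, 60 could be tested in each of 3 settings, and 60 lost the call without the block, 28 with DESeq2 and 33 without replicate 1. Of the 85 genes so picked and called for label against the library, 43 lost the call with all table lines summed. The causes were not tested. Genes with few conversions have wide errors, and the intervals given cover the spread between these libraries only.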
